A study of Mus musculus with 12 samples.

Results

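The Wnt, Notch and BMP signaling genes were the 79 genes, of 12394 measured, whose platform symbol belongs to the Wnt, Fzd, Sfrp, Dkk, Notch, Hes, Hey, Bmp, Smad or Grem families or is Id1 to Id4, Axin1, Axin2, Nog, Chrd, Jag1, Jag2 or Dll1. Membership rested on the symbol and on no measured value, though the families were chosen with earlier results of these data known. By role they were 19 Wnt ligands, 9 Frizzled receptors, 8 secreted Wnt modulators, 2 Axins, 3 Notch ligands, 4 Notch receptors, 8 Hes and Hey factors, 9 BMP ligands, 3 BMP antagonists, 8 Smads and 4 Id factors. Another 2 genes carry a Bmp symbol and are not BMP ligands: Bmp1 is a procollagen-cleaving protease, and Bmp2k is a serine/threonine kinase. Both genes were kept in every count, and figures by role label them as matched by name only.

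RNA of the hippocampal CA1 subfield was read on 12 Affymetrix arrays in 4 groups of 3. The groups were SUMO-KD mice after ischemia, SUMO-KD mice after sham surgery, wild-type mice after ischemia and wild-type mice after sham surgery. SUMO-KD mice have a knockdown of SUMO, a small protein that is attached to other proteins; the construct, its promoter, the strain and the age of the mice are not given in the sources used here. In the ischemia groups blood flow to the forebrain was stopped for 10 minutes and restored for 3 hours, and each array held RNA pooled from 2 brains. The labels call the arrays of a group biological replicates and give no litter or surgery day, so the p-values measure the spread between these pools. In such tissue RNA, fewer cells of a type and less RNA per cell cannot be told apart.

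Wnt proteins bind Frizzled receptors and stabilise β-catenin or act through calcium and cell polarity routes, and Axin1 is a scaffold of the complex that degrades β-catenin. Notch receptors are cleaved when a ligand on a neighbouring cell binds them, and the freed domain switches on Hes and Hey genes, which encode repressors. BMP ligands signal through Smad1, Smad5 and Smad9 to genes such as the Id factors, while Smad6 and Smad7 inhibit the pathway; in the adult hippocampus all 3 pathways are known for their part in the upkeep of neural stem cells and of vessels.

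A called gene had a Benjamini-Hochberg adjusted p under 0.05 in limma over all 12394 genes, and a log2 change is a difference of group means of log2(intensity + 32), which understates the change of dim genes. After ischemia in SUMO-KD mice 13 of the 79 genes were called higher and 4 lower. The background was 10.7% of all genes called in either direction, 6.08% higher and 4.62% lower, against 21.5%, 16.5% and 5.06% of the 79. In wild-type mice 17 were called higher and 3 lower, or 25.3% of the 79, with 21.5% higher and 3.8% lower. The background there was 18.5%, with 9.59% higher and 8.88% lower. The median log2 change of the 79 genes was 0.11 in SUMO-KD mice and 0.09 in wild-type mice, against −0.02 and −0.04 over all genes. Higher calls made up 51.9% of all the genes called in wild-type mice and 40.9% after median centring of the arrays.

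Across both genotypes, 12 genes were called higher in each, which is 92.3% of the higher calls in SUMO-KD mice and 70.6% of those in wild-type mice. They were Fzd3, Fzd4, Fzd7, Wnt10a, Wnt11, Sfrp4, Hes6, Hey1, Smad1, Smad7, Id3 and Bmp2k. Fzd2 and Hes5 were called lower in both, which is 50% of the lower calls in SUMO-KD mice and 66.7% of those in wild-type mice. The same shares were not counted over all genes, so they have no background beside them. Whether the overlap between genotypes is particular to the signaling genes was not tested. Without wild-type sham replicate 1, the calls in wild-type mice came to 11 higher and 1 lower. The 3 lower calls also came to 1 without wild-type sham replicate 2 or without wild-type ischemia replicate 3. Of the 4 lower calls in SUMO-KD mice, 2 were left when sham replicate 1 was omitted and 1 when either sham replicate 3 or ischemia replicate 2 was.

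In every group the mean of 19 genes stayed below the offset of 32, among them Wnt3, Wnt8a, Wnt8b, Wnt9a, Wnt9b, Wnt10b, Wnt16, Fzd1, Dkk1, Dkk4, Sfrp5, Nog and Smad9, and 1 of these 19, Dkk2, was called in any comparison. Of the 36 genes whose brightest group mean lay between 100 and 1000, 18 were called in at least 1 comparison, and of the 8 genes at or above 1000, 4 were. All genes of the same brightness were not counted, so these shares have no background beside them. The low values are bounds set by the array's dim end, and no absence of the RNA follows from them.

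**Figure D1:**
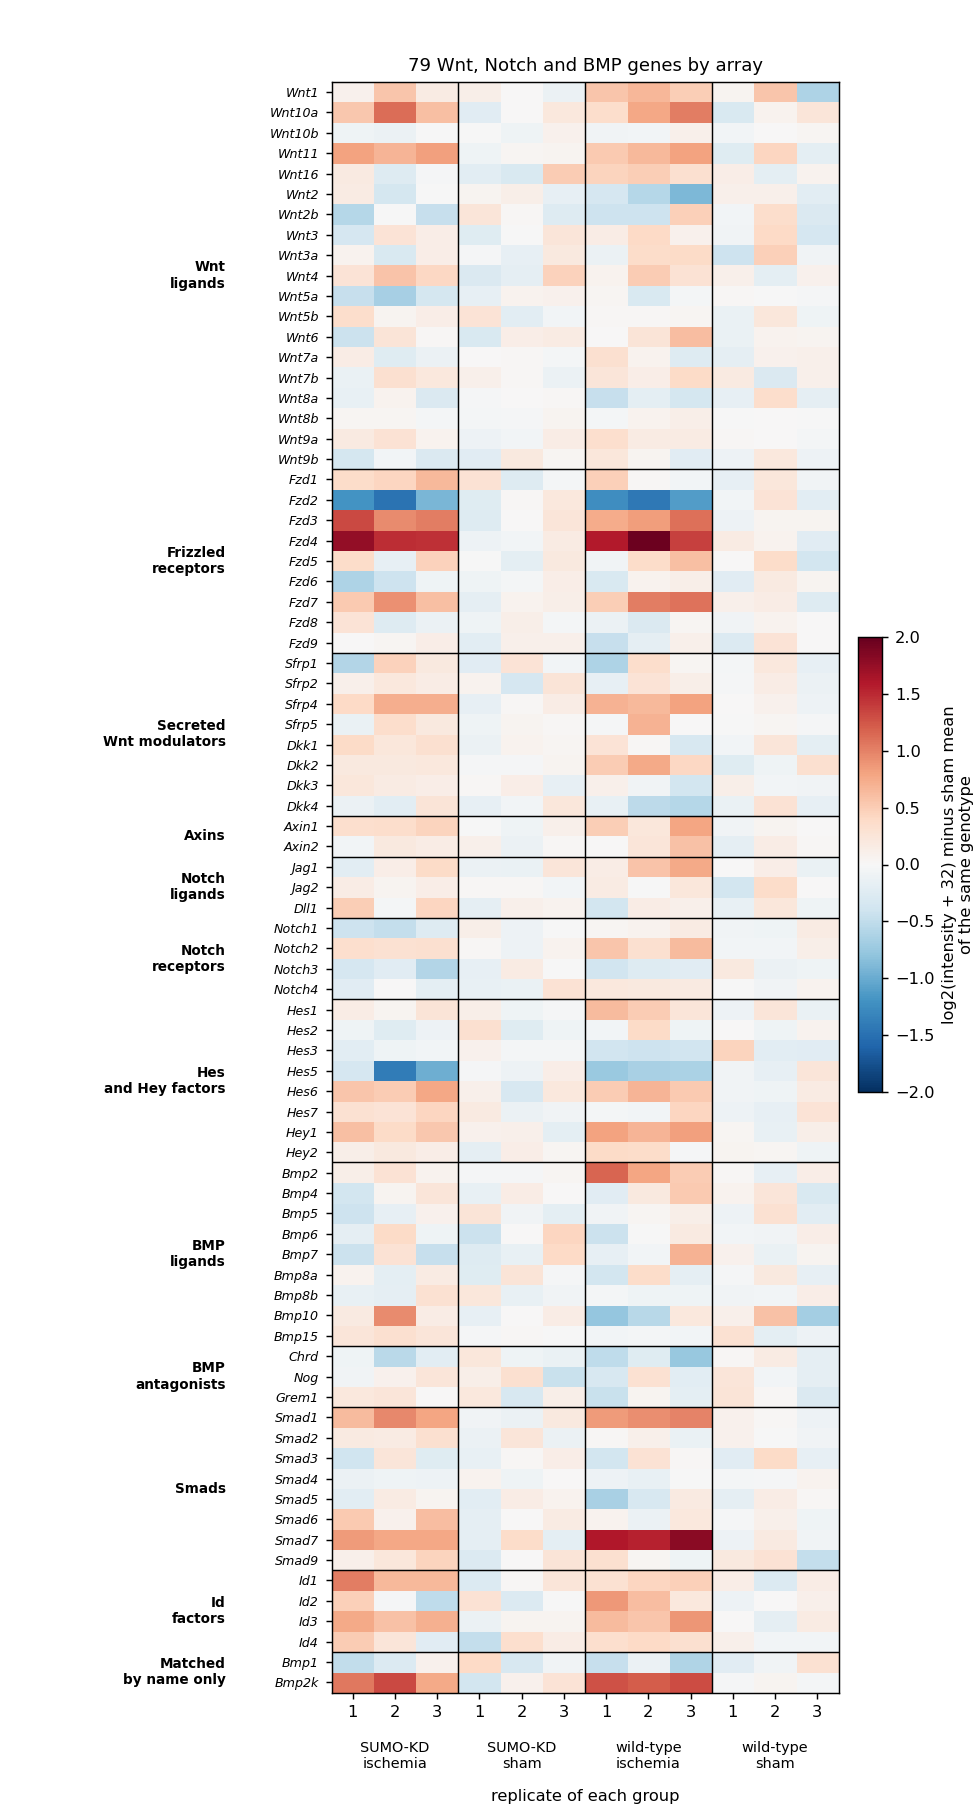
Colour gives log2(intensity + 32) of each array minus the sham mean of its own genotype, for the 79 genes in rows grouped by role and the 12 arrays in columns, on a scale of −2 to 2. Fzd4 is dark red in the ischemia columns of both genotypes and Smad7 in those of wild-type mice, Fzd2 is dark blue, and most rows stay pale.

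Promoter windows are shown for 4 of the genes called higher after ischemia in both genotypes, since members that moved together are where shared letters could be looked for. RefSeq promoter entries (GRCm38.p6) were at hand for 54 of the 79 genes, in 61 windows, and for 7 of the 12 genes called higher in both genotypes. Each line gives the 250 bases upstream of the annotated start on the gene's own strand, with motif matches in capitals.
Fzd4 promoter, chr7:89404116-89404365, plus strand: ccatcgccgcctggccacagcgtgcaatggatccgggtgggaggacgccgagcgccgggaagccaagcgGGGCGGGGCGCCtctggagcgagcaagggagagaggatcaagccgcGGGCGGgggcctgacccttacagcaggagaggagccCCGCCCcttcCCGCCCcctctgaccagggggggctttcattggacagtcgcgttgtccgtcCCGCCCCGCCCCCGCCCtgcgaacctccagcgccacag
Smad1 promoter, chr8:79399429-79399678, minus strand: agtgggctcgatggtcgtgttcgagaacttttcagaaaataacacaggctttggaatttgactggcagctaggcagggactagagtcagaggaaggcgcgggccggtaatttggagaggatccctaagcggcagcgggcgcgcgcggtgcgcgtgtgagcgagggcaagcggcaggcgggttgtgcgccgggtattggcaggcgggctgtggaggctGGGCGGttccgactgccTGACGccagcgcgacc
Id3 promoter, chr4:136143572-136143821, plus strand: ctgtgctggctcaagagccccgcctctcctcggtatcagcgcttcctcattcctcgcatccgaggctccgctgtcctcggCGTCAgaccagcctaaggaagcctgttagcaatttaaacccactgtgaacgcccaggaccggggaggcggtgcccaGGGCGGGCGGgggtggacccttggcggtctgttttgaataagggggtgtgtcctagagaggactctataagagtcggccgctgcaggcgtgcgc
Fzd7 promoter, chr1:59481897-59482146, plus strand: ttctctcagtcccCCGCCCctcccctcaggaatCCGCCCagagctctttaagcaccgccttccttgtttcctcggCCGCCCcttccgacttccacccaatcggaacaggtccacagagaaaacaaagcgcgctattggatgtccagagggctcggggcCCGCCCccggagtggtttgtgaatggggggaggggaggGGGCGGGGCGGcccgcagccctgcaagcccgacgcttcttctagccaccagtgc

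The windows were rich in G and C, at 72.8% for Fzd4, 63.6% for Smad1, 62.8% for Id3 and 65.2% for Fzd7. Searched on both strands were 7 motifs: the TCF/LEF core CTTTGA, the RBPJ core TGGGAA, the GC element GGCGCC bound by BMP Smads, the CRE core TGACG, the AP-1 site TGANTCA, the E-box CACGTG and the GC box GGGCGG. Matches may overlap, as neighbouring GC boxes do in the Fzd4, Id3 and Fzd7 windows, and in the Fzd4 window a GC box and the GGCGCC element stand end to end. The GC box was in 72.1% of the 61 windows and in 32.7% of all 32851 windows of that length. GGCGCC stood in 27.9% of the 61 and 9.6% of all. Both motifs are made of G and C alone. The G and C content of all windows was not counted, and its part in these shares was not tested. The other motifs stood in 6.6% and 13.8% for CTTTGA, 21.3% and 21.6% for TGGGAA, 16.4% and 17.8% for TGACG, 3.3% and 6.7% for TGANTCA, and 6.6% and 6.0% for CACGTG. In the printed windows Fzd4 had 7 GC boxes and 1 GGCGCC element, Smad1 had 1 GC box and a CRE core 16 bases before the start, Id3 had 2 GC boxes and a CRE core, and Fzd7 had 6 GC boxes. A match is a run of letters and says nothing of whether a factor binds.

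The median intensity of an array was 141 to 162, with 22.4% to 28.6% of its probe sets under 32. Signal of the 18S rRNA controls was low on 5 of 6 ischemia arrays: the 5′ probe set read 1275 to 1660 in those 5 and 4194 to 6528 in the 6 sham arrays. SUMO-KD ischemia replicate 2 read 4127, next to the sham arrays. Without it, 12 of the 79 genes were called higher and 1 lower after ischemia in SUMO-KD mice. On the other arrays the 18S signal went with surgery. The part of RNA handling or labelling in the changes after ischemia was not tested. Sumo3, the SUMO gene used to check the knockdown, read 1879, 1936 and 1909 in SUMO-KD ischemia arrays and 3436, 3245 and 3518 in wild-type ischemia arrays. In sham arrays it read 1337, 1689 and 1654 in SUMO-KD mice and 2314, 2247 and 2467 in wild-type mice. It was lower in SUMO-KD mice in both, at log2 changes of −0.82 (SE 0.10, adjusted p = 0.00151) and −0.58 (SE 0.10, adjusted p = 0.0096). That check rests on 1 probe set of a type that may match several transcripts: with such probe sets left out, Sumo3 had −0.10 after ischemia (adjusted p = 0.696) and 0.05 in sham mice (adjusted p = 0.881), and the mean of all its probe sets gave −0.27 in sham mice (adjusted p = 0.159). Of 6 CA1 pyramidal markers 4 were measured, Wfs1, Pou3f1, Man1a and Dcn, and none averaged below 32 in any group.

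Among the Wnt members of the 79 genes the Frizzled receptors held the largest changes, with Fzd4, Fzd3 and Fzd7 up and Fzd2 down in both genotypes and 5 of 9 not called in either. Fzd4, a receptor for Wnts and for norrin that is known from retinal and brain vessels, read 283, 225 and 223 in SUMO-KD ischemia arrays against 54.2, 57.3 and 71.4 in SUMO-KD sham arrays. In wild-type mice the readings were 269, 356 and 227 after ischemia against 80.0, 72.6 and 53.4 after sham surgery. Every ischemia array lay above every sham array of its genotype, with log2 changes of 1.57 (SE 0.16, adjusted p = 0.000105) in SUMO-KD mice and 1.64 (SE 0.16, adjusted p = 5.25e-05) in wild-type mice. A second Fzd4 probe set averaged under 10 over the arrays, and averaging both gave 0.87 and 0.95.

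Fzd3, which guides axons through the cell polarity route, read 142, 102 and 110.2 after ischemia against 26.4, 38.4 and 51.2 after sham surgery in SUMO-KD mice. The wild-type readings were 116, 125 and 158 against 49.9, 59.7 and 59.8. The groups did not overlap in either genotype, and the log2 changes were 1.09 (SE 0.15, adjusted p = 0.000727) and 0.89 (SE 0.15, adjusted p = 0.00177). The mean over its 4 probe sets gave 0.51 in SUMO-KD mice and 0.55 in wild-type mice, both called.

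Fzd7, a receptor of many Wnt ligands, read 276, 370.1 and 294 after ischemia against 157, 193 and 201 after sham surgery in SUMO-KD mice, and 345, 512 and 537 against 257, 266 and 193 in wild-type mice. The log2 changes were 0.68 (SE 0.17, adjusted p = 0.03) and 0.86 (SE 0.17, adjusted p = 0.00563), with no overlap. The SUMO-KD call was lost on leaving out any 1 of the 3 sham arrays or ischemia replicate 2 or 3, with adjusted p of 0.0539 to 0.127. Its second probe set averaged 3.01, near 0, and the mean of both gave 0.32 and 0.44, with the SUMO-KD call lost (adjusted p = 0.0866).

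Fzd2, another Wnt receptor, went the other way. It read 92.5, 70.0 and 119.6 after ischemia against 210.0, 258 and 298 after sham surgery in SUMO-KD mice, and 77.5, 64 and 87.5 against 217, 281 and 191 in wild-type mice. All ischemia arrays lay below all sham arrays of their genotype, at log2 changes of −1.20 (SE 0.17, adjusted p = 0.00124) and −1.26 (SE 0.17, adjusted p = 0.000588). Its other 2 probe sets had log2 changes of −0.73 and −0.58 in SUMO-KD mice and −0.75 and −0.63 in wild-type mice. Their limma adjusted p over all probe sets were 0.111 and 0.0728 in SUMO-KD mice and 0.0718 and 0.0358 in wild-type mice. Among the receptors not called, Fzd6 read 169.7 to 260.0 after ischemia and 258 to 307 after sham surgery in SUMO-KD mice, and 196 to 275 and 209 to 288 in wild-type mice.

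Endothelial markers bear on genes known from vessels. Of 8 listed, 7 were measured, with 1 called higher and 2 lower after ischemia in each genotype. Their summed intensity ran from 1544 to 1628 after ischemia and 1764 to 2299 after sham surgery in SUMO-KD mice, and from 1508 to 1928 and 2088 to 2545 in wild-type mice. Cdh5, the endothelial cadherin, was higher after ischemia, by 0.84 in SUMO-KD mice and 0.91 in wild-type mice, while Slco1a4 and Tek were lower in both. Slco1a4 averaged 385 after ischemia and 885 after sham surgery in SUMO-KD mice, and 355 and 1038 in wild-type mice. The fall of the endothelial sum thus rested largely on this 1 gene. Microglial markers were summed at 3070 to 3463 after ischemia and 4241 to 4532 after sham surgery in SUMO-KD mice, and at 3097 to 3366 and 4353 to 4678 in wild-type mice, with 4 of 7 called lower in each. In wild-type mice 3 of 6 interneuron markers were lower after ischemia, Sst (−0.40), Pvalb (−0.37) and Vip (−0.62), with 0 of 6 called by limma in SUMO-KD mice and 0 at an unadjusted p under 0.05 there. The difference of the responses was called for 0 of the 6, with 2 at an unadjusted p under 0.05. Their summed intensity ran from 11508 to 13780 after ischemia and 11741 to 12139 after sham surgery in SUMO-KD mice, and from 10078 to 13230 and 12444 to 13242 in wild-type mice. Single markers called after ischemia were the astrocyte gene Gfap (0.77), the dentate granule gene Prox1 (1.03) and the oligodendrocyte gene Sox10 (−0.93) in wild-type mice, the mural gene Cspg4 (−0.45) in SUMO-KD mice, and the CA3 gene Socs2 in both (1.17 in SUMO-KD mice and 0.98 in wild-type mice). Each was the only call of its list, which held 8, 3, 7, 6 and 4 measured genes in that order. The list medians in wild-type mice were 0.01, −0.22 and −0.05 for astrocyte, dentate and oligodendrocyte genes. The median was −0.12 for mural genes in SUMO-KD mice, and 0.24 and 0.21 for CA3 genes in SUMO-KD and wild-type mice. The other dentate genes, Dsp (−0.22) and Tdo2 (−0.33), went the other way from Prox1 in wild-type mice. The part of these shifts in the changes of the signaling genes was not tested.

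**Figure D2:**
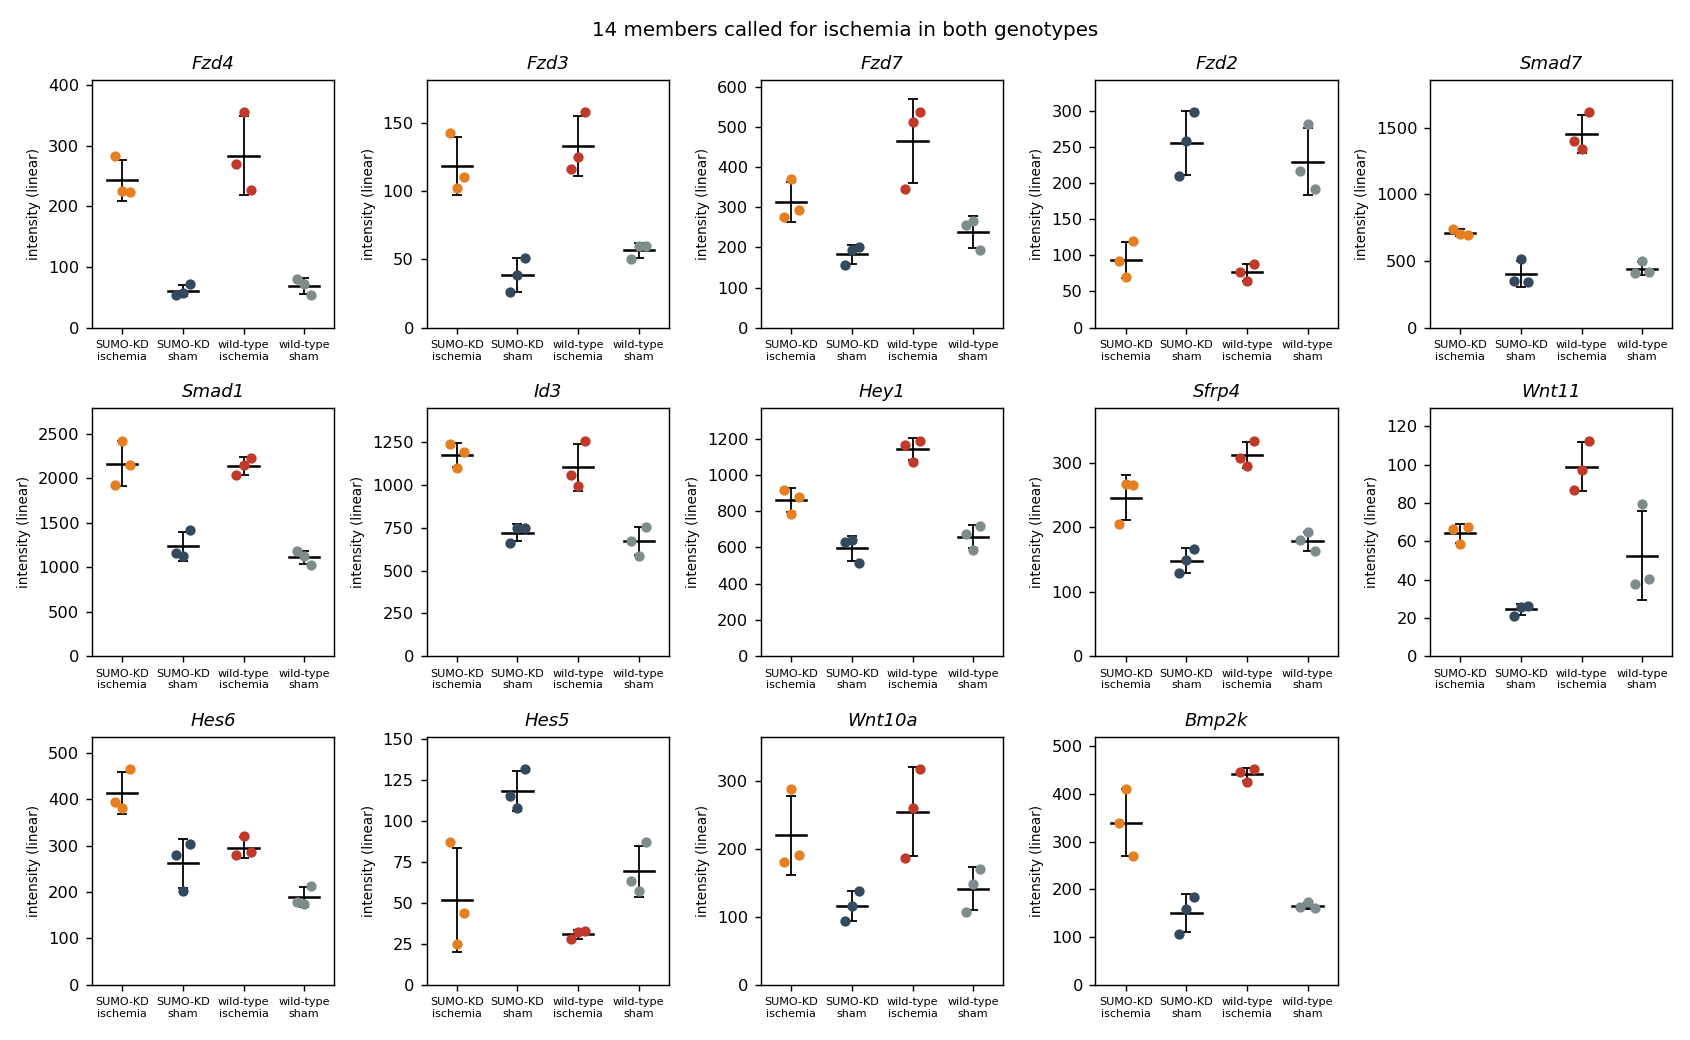
Linear intensity on each of the 12 arrays for the 14 genes called after ischemia in both genotypes, with points for arrays, a bar for the group mean and whiskers of 1 SD (n = 3). The ischemia arrays lie above the sham arrays of the same genotype in 12 panels and below them in those of Fzd2 and Hes5.

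Of the 19 Wnt ligands, 2 were called higher in each genotype, the same pair of Wnt10a and Wnt11, and 1 was called lower in each, Wnt5a in SUMO-KD mice and Wnt2 in wild-type mice. Wnt11, a ligand of the polarity route, read 66.6, 58.4 and 67.5 after ischemia against 21.2, 25.7 and 26.4 after sham surgery in SUMO-KD mice, and 87, 97.1 and 113 against 37.7, 79.4 and 40.4 in wild-type mice. Sham replicate 2 of wild-type mice stood close to the ischemia arrays, and the groups still did not overlap. The log2 changes were 0.77 (SE 0.16, adjusted p = 0.00945) and 0.66 (SE 0.16, adjusted p = 0.0135). The wild-type call was lost without sham replicate 1 or 3 or ischemia replicate 3, at adjusted p of 0.057, 0.0551 and 0.0516.

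Wnt10a, a ligand of the β-catenin route, read 181, 288 and 191 after ischemia against 94.1, 116 and 138 after sham surgery in SUMO-KD mice, and 187, 261 and 318 against 106, 148 and 169.8 in wild-type mice. Ischemia arrays were higher without overlap in both, at log2 changes of 0.75 (SE 0.21, adjusted p = 0.0431) and 0.72 (SE 0.21, adjusted p = 0.0358). Both calls were near the threshold. The SUMO-KD call was lost on leaving out any 1 of the 3 SUMO-KD sham arrays, SUMO-KD ischemia replicate 2 or 3, or replicate 2 of wild-type sham or ischemia, with adjusted p of 0.0545 to 0.17. In wild-type mice it was lost without sham replicate 1 or 2, ischemia replicate 2 or 3, or SUMO-KD sham replicate 2, with adjusted p of 0.0501 to 0.132.

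Wnt5a, the main ligand of the β-catenin-independent routes, read 89.6, 73.8 and 99.2 after ischemia against 118, 145 and 147 after sham surgery in SUMO-KD mice, and 130.3, 96.2 and 122 against 128, 124 and 124 in wild-type mice. It was lower after ischemia in SUMO-KD mice, with no overlap, at a log2 change of −0.50 (SE 0.12, adjusted p = 0.0192). Wild-type arrays overlapped, at −0.10 (SE 0.12, adjusted p = 0.629). The SUMO-KD call was lost without sham replicate 2 or 3 or ischemia replicate 2, at adjusted p of 0.0703, 0.0714 and 0.0839. A second, dimmer probe set had log2 changes of −0.18 and −0.01.

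Wnt2, a ligand of the β-catenin route that is known from vessels and lung, read 80.3, 46.9 and 68.2 after ischemia against 72.3, 76.7 and 57.5 after sham surgery in SUMO-KD mice, where the groups overlapped (−0.06, SE 0.17, adjusted p = 0.875). In wild-type mice it read 134, 108 and 79.4 against 193, 191 and 149, lower after ischemia with no overlap, at −0.60 (SE 0.17, adjusted p = 0.0289). That call was lost without sham replicate 1 or 2 or ischemia replicate 2 or 3, with adjusted p of 0.0581 to 0.103. The brightest ligand not called was Wnt7b, at 241 to 341 after ischemia and 243 to 289 after sham surgery in SUMO-KD mice, and 353 to 427 and 256 to 364 in wild-type mice.

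Among the 8 secreted modulators Sfrp4 was higher after ischemia in both genotypes. This frizzled-related protein binds Wnt ligands outside the cell. It read 205, 266 and 265 after ischemia against 128, 149 and 167 after sham surgery in SUMO-KD mice, and 307, 295 and 334 against 179.8, 192 and 163 in wild-type mice. No arrays overlapped, and the log2 changes were 0.62 (SE 0.12, adjusted p = 0.00585) and 0.71 (SE 0.12, adjusted p = 0.00156). Dkk2, which binds the Wnt co-receptors Lrp5 and Lrp6, was called higher in wild-type mice at 0.56 (SE 0.13, adjusted p = 0.014), all at the dim end: it read 24.9, 35.6 and 21.6 after ischemia against 1.9, 5.9 and 18 after sham surgery. Its SUMO-KD arrays read 16.5, 16.5 and 16.9 against 9.4, 9.5 and 11.9, at 0.20 (SE 0.13, adjusted p = 0.41). Its value moved with the offset, to 0.86 at an offset of 16 and 0.33 at 64, and the call was lost without wild-type sham replicate 1 (adjusted p = 0.0575). Dkk3, the brightest modulator, was not called, at 1630.4 to 1738 after ischemia and 1313 to 1631 after sham surgery in SUMO-KD mice, and 1498 to 2080.1 and 1846 to 2101 in wild-type mice.

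Of the Axins, Axin1 was called higher in wild-type mice. It read 409.7, 413 and 444 after ischemia against 314, 296 and 344 after sham surgery in SUMO-KD mice, and 404, 332 and 507 against 264, 292 and 282 in wild-type mice. The groups were apart in both genotypes, with log2 changes of 0.38 (SE 0.13, adjusted p = 0.084) and 0.50 (SE 0.13, adjusted p = 0.0175). In SUMO-KD mice it was called when wild-type ischemia replicate 2 or 3 was left out, at adjusted p of 0.0403 and 0.0287. In wild-type mice the call was lost without sham replicate 1 (adjusted p = 0.0641) and with the mean of its 2 probe sets, which gave 0.29 (adjusted p = 0.0934). Axin2, a known target of β-catenin, was not called in either genotype, at 269 to 325 after ischemia and 256 to 301 after sham surgery in SUMO-KD mice, and 307 to 476 and 267 to 340.4 in wild-type mice.

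In the Notch arm none of the 3 ligands was called in either genotype, and the receptors moved in different ways. Jag1 read 32.3 to 65.5 after ischemia and 35.9 to 56.1 after sham surgery in SUMO-KD mice, and 35.4 to 70.6 and 23.6 to 34.3 in wild-type mice, with log2 changes of 0.10 (SE 0.18, adjusted p = 0.797) and 0.49 (SE 0.18, adjusted p = 0.0866). Notch2 read 419, 409.9 and 413 after ischemia against 332, 302 and 342 after sham surgery in SUMO-KD mice, and 486, 409 and 513 against 306, 307 and 348 in wild-type mice. All ischemia arrays lay above the sham arrays of their genotype, and the change was called in wild-type mice, at 0.51 (SE 0.10, adjusted p = 0.00417), with 0.32 (SE 0.10, adjusted p = 0.0572) in SUMO-KD mice. The SUMO-KD value passed the threshold without wild-type ischemia replicate 2 or 3, at adjusted p of 0.0385 and 0.048. A second Notch2 probe set averaged 34.2, and the mean of both gave 0.18 in wild-type mice (adjusted p = 0.269).

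Notch1 read 271, 258 and 307 after ischemia against 404, 344 and 369 after sham surgery in SUMO-KD mice, and 417, 428 and 456 against 385, 379 and 455 in wild-type mice. The SUMO-KD ischemia arrays lay below all the others, at a log2 change of −0.38 (SE 0.10, adjusted p = 0.0316) in SUMO-KD mice, and the wild-type groups overlapped, at 0.09 (SE 0.10, adjusted p = 0.591). The SUMO-KD call was lost without sham replicate 1 or 3 or ischemia replicate 1 or 2, with adjusted p of 0.0717 to 0.124. A second Notch1 probe set had a log2 change of −0.03 in SUMO-KD mice, and the mean of both gave −0.20 (adjusted p = 0.366). Notch3, a receptor of vessel wall cells, and Notch4, a receptor of endothelium, were not called.

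Of the 8 Hes and Hey factors, Hey1 and Hes6 were called higher and Hes5 lower in both genotypes, and Hes1 was called higher in wild-type mice. Hey1 read 915, 786 and 881 after ischemia against 632, 639 and 517 after sham surgery in SUMO-KD mice, and 1166, 1073 and 1190.3 against 674, 588 and 716 in wild-type mice. The arrays did not overlap, and the log2 changes were 0.51 (SE 0.11, adjusted p = 0.0119) and 0.77 (SE 0.11, adjusted p = 0.000732). Hes6, which opposes Hes1 and favours neuronal differentiation, read 394, 381 and 465 after ischemia against 280.3, 202 and 304 after sham surgery in SUMO-KD mice, and 280.3, 321 and 286 against 178, 174 and 213 in wild-type mice. Its log2 changes were 0.61 (SE 0.14, adjusted p = 0.0157) and 0.57 (SE 0.14, adjusted p = 0.0143), with no overlap. The SUMO-KD call was lost without ischemia replicate 3 (adjusted p = 0.0669), and the wild-type call without sham replicate 1 (adjusted p = 0.0524) or with probe sets that may match several transcripts left out (adjusted p = 0.0821).

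Hes5, a Notch target of neural stem cells, read 87, 24.9 and 43.8 after ischemia against 115, 108 and 132 after sham surgery in SUMO-KD mice, and 27.7, 31.9 and 32.7 against 63.1, 57.2 and 87 in wild-type mice. It was lower after ischemia without overlap in both, at −0.90 (SE 0.21, adjusted p = 0.0199) and −0.68 (SE 0.21, adjusted p = 0.0478), and a second probe set had −1.19 and −0.94. The wild-type call was lost in 10 of 12 omissions of an array, all but those of SUMO-KD ischemia replicate 1 or 2, with adjusted p of 0.0587 to 0.156. With all arrays it was also lost at an offset of 16 (adjusted p = 0.0527) and under quantile normalization (adjusted p = 0.0546). The SUMO-KD call was lost without sham replicate 1 or 3 or ischemia replicate 2 or 3, with adjusted p of 0.0559 to 0.0694. Hes1 read 288, 269 and 312 after ischemia against 281, 240.5 and 251 after sham surgery in SUMO-KD mice, where the groups overlapped (0.15, SE 0.13, adjusted p = 0.534). In wild-type mice it read 311, 281 and 229.5 against 173, 228 and 169, apart and higher after ischemia, at 0.46 (SE 0.13, adjusted p = 0.0276). That call was lost without sham replicate 1 or 3 or ischemia replicate 1 or 2, with adjusted p of 0.0709 to 0.101, and after median centring (adjusted p = 0.0668).

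In the BMP arm the inhibitory Smad7 and the transducer Smad1 were the 2 of 8 Smads called after ischemia on the probe set used for each gene, both higher in both genotypes. Smad7 read 742, 700.2 and 697 after ischemia against 347, 518 and 344 after sham surgery in SUMO-KD mice. In wild-type mice it read 1400.0, 1340.5 and 1617 against 409, 501 and 419. The sham groups overlapped each other, and every wild-type ischemia array exceeded every SUMO-KD ischemia array, which in turn exceeded all sham arrays. The means were 713 ± 25.4 after ischemia and 403 ± 99.9 after sham surgery in SUMO-KD mice, and 1452 ± 145 and 443 ± 50.8 in wild-type mice (SD, n = 3 each). The log2 changes were 0.80 (SE 0.15, adjusted p = 0.00496) and 1.65 (SE 0.15, adjusted p = 2.82e-05).

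Smad1 read 1924, 2426 and 2147 after ischemia against 1163, 1123 and 1415 after sham surgery in SUMO-KD mice, and 2033, 2153 and 2233 against 1177, 1130.3 and 1029 in wild-type mice. No ischemia array overlapped the sham arrays of its genotype, and the log2 changes were 0.80 (SE 0.11, adjusted p = 0.00104) and 0.93 (SE 0.11, adjusted p = 0.000263). Smad4, the partner that all receptor-activated Smads share, was bright and not called, at 1647 to 1692 after ischemia and 1695 to 1897 after sham surgery in SUMO-KD mice, and 1765 to 1940.2 and 1895 to 2043 in wild-type mice. Smad6, the other inhibitory Smad, was not called, at 0.40 (SE 0.15, adjusted p = 0.109) in SUMO-KD mice and 0.06 (SE 0.15, adjusted p = 0.845) in wild-type mice. The probe sets of Smad5, a BMP transducer, disagreed. The brighter, used here, averaged 141 over the arrays and was not called, at 0.00 (SE 0.19, adjusted p = 0.997) in SUMO-KD mice and −0.26 (SE 0.19, adjusted p = 0.397) in wild-type mice. The dimmer averaged 71.2 and was higher after ischemia, by 0.63 in SUMO-KD mice and 0.70 in wild-type mice, with limma adjusted p of 0.00658 and 0.00217 over all probe sets.

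The Id factors, which bind and block bHLH transcription factors, included Id3, called higher in both genotypes, and Id1, called higher in SUMO-KD mice. Id3 read 1238, 1097 and 1193 after ischemia against 664, 749 and 749 after sham surgery in SUMO-KD mice, and 1056, 993 and 1259 against 672, 588 and 756 in wild-type mice. Its groups were apart, with log2 changes of 0.68 (SE 0.12, adjusted p = 0.00331) and 0.69 (SE 0.12, adjusted p = 0.00189). Id1 read 831, 637 and 634 after ischemia against 322, 404 and 471 after sham surgery in SUMO-KD mice, and 529, 579 and 604 against 468, 343 and 469 in wild-type mice. The log2 changes were 0.77 (SE 0.16, adjusted p = 0.00995) and 0.41 (SE 0.16, adjusted p = 0.103), apart in both genotypes, and the difference between them was 0.37 (SE 0.22, adjusted p = 0.878). Id2 and Id4, the brightest of the family, were not called in either genotype on the probe sets used. Id2 had −0.02 (SE 0.24, adjusted p = 0.979) in SUMO-KD mice, where the groups overlapped, and 0.56 (SE 0.24, adjusted p = 0.129) in wild-type mice, where they did not. A second Id2 probe set, averaging 1914, was higher after ischemia in wild-type mice, by 0.64 (adjusted p = 0.0232 over all probe sets), and had 0.36 in SUMO-KD mice (adjusted p = 0.227).

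Among the 9 BMP ligands Bmp2 alone was called after ischemia, in wild-type mice, and none of the 3 antagonists was. Bmp2 read 116, 134 and 109.9 after ischemia against 101, 102 and 108 after sham surgery in SUMO-KD mice, at a log2 change of 0.16 (SE 0.14, adjusted p = 0.575). In wild-type mice it read 117, 83.8 and 63.3 against 36.2, 27.9 and 41, at 0.82 (SE 0.14, adjusted p = 0.00255). The wild-type sham arrays stood below all other arrays. Chrd, an antagonist that binds BMPs outside the cell, read 171 to 245 after ischemia and 236 to 313 after sham surgery in SUMO-KD mice, and 145 to 219 and 230.2 to 302 in wild-type mice, at −0.28 (SE 0.16, adjusted p = 0.342) and −0.50 (SE 0.16, adjusted p = 0.0533).

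Of the pair with a Bmp symbol that are not BMP ligands, Bmp2k was called higher in both genotypes. It read 338, 411 and 270.5 after ischemia against 106, 158 and 184 after sham surgery in SUMO-KD mice, and 446, 426 and 452 against 163, 173 and 159.8 in wild-type mice, at 1.04 (SE 0.16, adjusted p = 0.00199) and 1.26 (SE 0.16, adjusted p = 0.000402). A second probe set averaged 27.3, and the mean of both gave 0.53 in SUMO-KD mice (adjusted p = 0.0933) and 0.74 in wild-type mice. Bmp1 was not called, at 331 to 509.8 after ischemia and 379 to 644 after sham surgery in SUMO-KD mice, and 205 to 299 and 275 to 411 in wild-type mice.

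**Figure D3:**
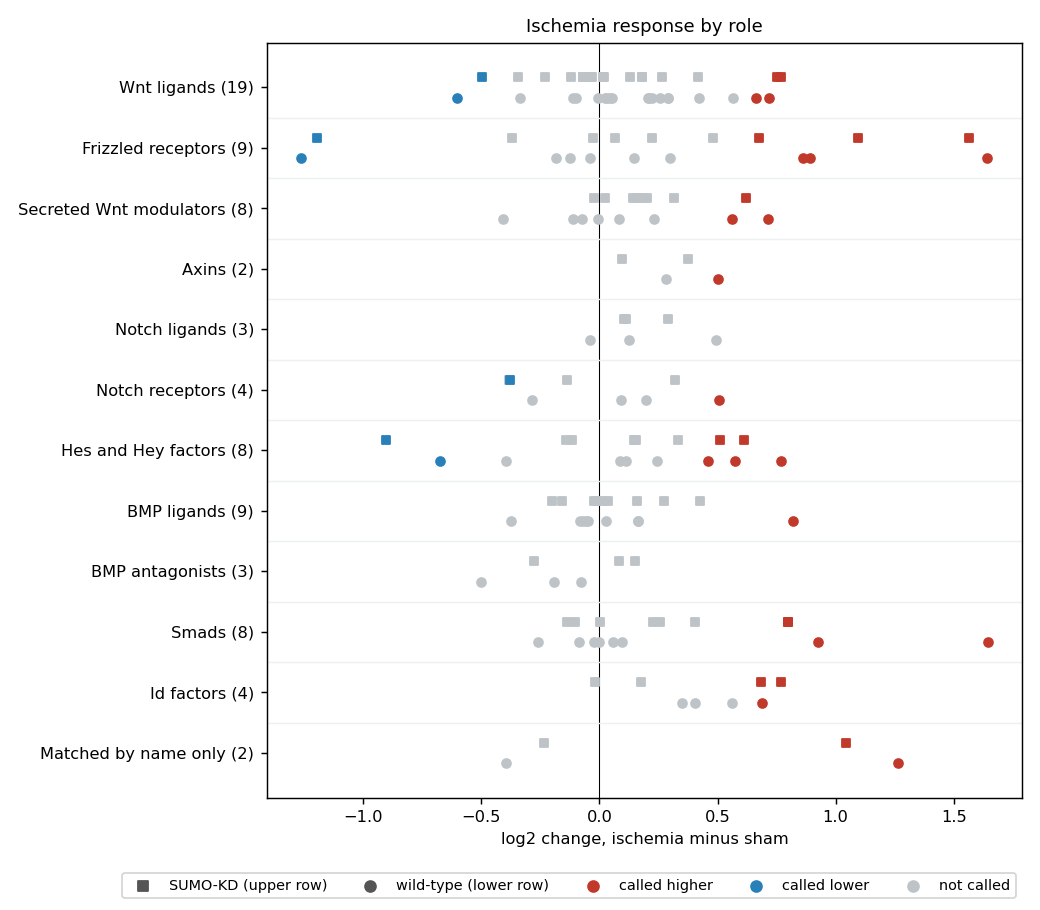
Each point is the log2 change (ischemia minus sham) of 1 of the 79 genes in SUMO-KD mice (squares, upper row) or wild-type mice (circles, lower row), by role, with red for called higher, blue for called lower and grey for not called. Notch ligands and BMP antagonists have no coloured point, and the Frizzled receptors spread from −1.26 to 1.64.

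The ischemia responses were next set against each other between genotypes. The difference of the responses (SUMO-KD minus wild-type) was called for 0 of the 79 genes by limma, and the background was 0.0161%, or 2 of 12394 genes. At an unadjusted p under 0.05 there were 5 of the 79, beside 768 of all 12394 genes. The smallest p belonged to Smad7, with a difference of −0.85 (SE 0.21, adjusted p = 0.43), an unadjusted p of 0.00159 and a 95% interval of −1.30 to −0.40. Notch1 followed at −0.47 (SE 0.14, adjusted p = 0.65), interval −0.78 to −0.16, and Bmp2 at −0.66 (SE 0.20, adjusted p = 0.711), interval −1.11 to −0.22. The 9 genes called in 1 genotype alone (Id1, Notch1 and Wnt5a in SUMO-KD mice; Axin1, Bmp2, Dkk2, Hes1, Notch2 and Wnt2 in wild-type mice) were thus not shown to respond differently. Fzd4 had a difference of −0.07 (SE 0.22, adjusted p = 0.98), interval −0.57 to 0.42, and Id3 of −0.01 (SE 0.16, adjusted p = 0.998), interval −0.36 to 0.35.

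**Figure D4:**
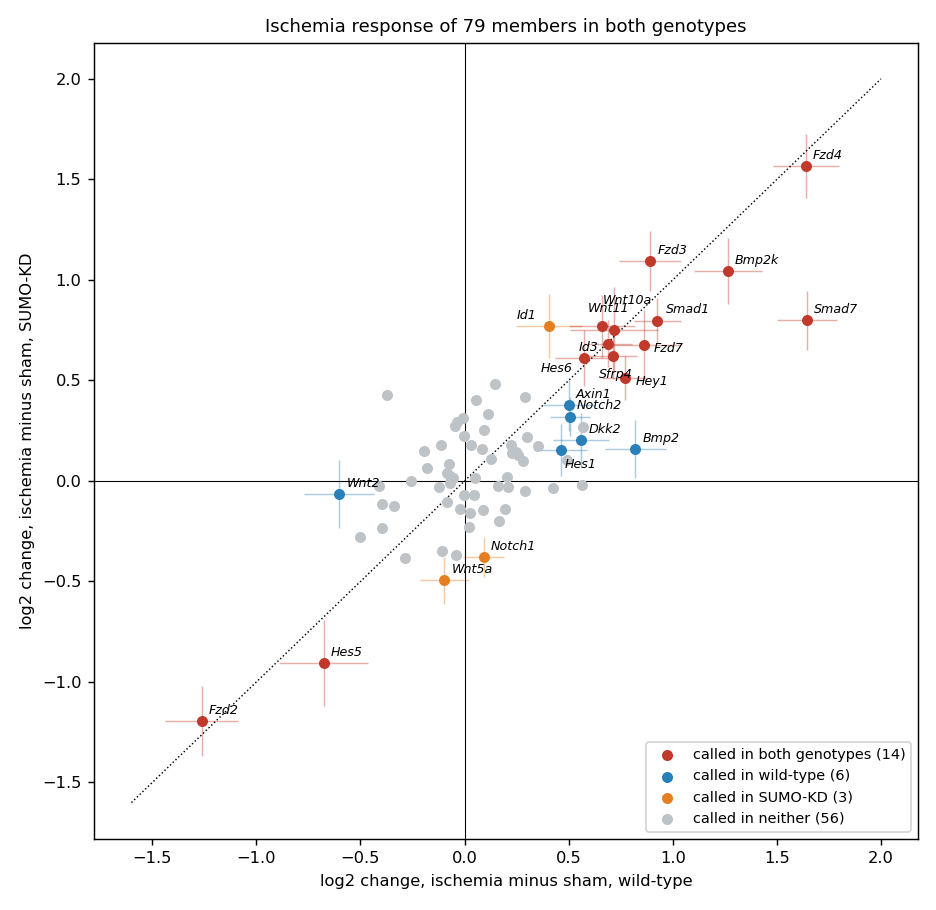
The log2 change after ischemia in SUMO-KD mice (vertical axis) against that in wild-type mice (horizontal axis) for the 79 genes, with lines of 1 SE on called genes and a dotted line of equality. Smad7 lies below the line, at 0.80 in SUMO-KD mice and 1.65 in wild-type mice, while Fzd4 lies close to it at 1.57 and 1.64.

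Between the genotypes after ischemia, Smad7 and Notch1 were lower in SUMO-KD mice and no gene was called higher. That is 2.53% of the 79, beside a background of 1.56% in either direction and 0.557% lower. At an unadjusted p under 0.05 there were 20 of the 79, beside 1915 of all 12394 genes. These comparisons reuse the arrays of the ischemia comparisons. Smad7 was lower, at a log2 change of −0.99 (SE 0.15, adjusted p = 0.00785) on the arrays given above. Notch1 was lower, at −0.59 (SE 0.10, adjusted p = 0.0145), and the call was lost without SUMO-KD ischemia replicate 1 (adjusted p = 0.0565) or 2 (adjusted p = 0.0504). The second Notch1 probe set had −0.10, and the mean of both gave −0.34 (adjusted p = 0.221). Without wild-type ischemia replicate 3 the count of higher genes was 1. Wnt11 was at −0.44 (SE 0.16, adjusted p = 0.205), with adjusted p = 0.0466 when wild-type sham replicate 2 was left out, and Hey1 at −0.40 (SE 0.11, adjusted p = 0.109).

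In sham mice 1 gene, Bmp2, was called higher and 2, Wnt2 and Grem1, lower in SUMO-KD mice, or 3.8% of the 79 beside a background of 2.10% (1.50% higher and 0.597% lower). The readings of Bmp2 and Wnt2 are those given above. Bmp2 was higher by 1.02 (SE 0.14, adjusted p = 0.00366), with means of 104 ± 3.72 in SUMO-KD sham arrays and 35 ± 6.64 in wild-type sham arrays (SD, n = 3 each). Wnt2 was lower, at −1.05 (SE 0.17, adjusted p = 0.00781), with means of 68.8 ± 10.1 and 178 ± 24.7. After ischemia the same contrast gave 0.36 (SE 0.14, adjusted p = 0.262) for Bmp2 and −0.52 (SE 0.17, adjusted p = 0.171) for Wnt2, not called.

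Grem1, an antagonist that binds BMPs, read 44.3, 21 and 39.7 in SUMO-KD sham arrays against 129.5, 105 and 78.1 in wild-type sham arrays. After ischemia it read 44.3, 46.1 and 34.4 in SUMO-KD mice against 66.8, 108 and 86.1 in wild-type mice. SUMO-KD arrays lay below wild-type arrays in both, at log2 changes of −1.02 (SE 0.18, adjusted p = 0.0122) and −0.68 (SE 0.18, adjusted p = 0.0949). Without wild-type sham replicate 1 the sham call was lost (adjusted p = 0.0624), which left 1 gene called lower.

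Some markers of CA1 pyramidal cells differed between the genotypes in the sham arrays. Of the 4 measured, Wfs1 (−0.87, SE 0.16, adjusted p = 0.0144) and Man1a (−0.85, SE 0.18, adjusted p = 0.0332) were lower in SUMO-KD mice. Pou3f1 (−0.88, SE 0.25, adjusted p = 0.118) and Dcn (0.24, SE 0.41, adjusted p = 0.847) were not called. The summed intensity of the 4 ran from 3069 to 4275 in SUMO-KD sham arrays and from 5524 to 7607 in wild-type sham arrays. After ischemia it ran from 3461 to 3727 in SUMO-KD mice and from 3942 to 4530 in wild-type mice, so in wild-type mice it was also below its sham level, with 2 of 4 markers called lower. Of 8 astrocyte markers, Gfap and Aqp4 were higher in SUMO-KD sham arrays, by 0.59 and 0.52, and their list summed to 24631 to 26491 there and 20092 to 24083 in wild-type sham arrays. The 3 measured dentate granule markers were above 0 in this contrast and not called: Tdo2 0.88 (SE 0.21, adjusted p = 0.0623), Dsp 0.45 and Prox1 0.35. Their sum ran from 1996 to 2822 in SUMO-KD sham arrays and from 1205 to 2412 in wild-type sham arrays. Pan-neuronal, choroid plexus and meningeal markers had no call in any comparison. The part of these shifts in the differences of Bmp2, Wnt2 and Grem1 was not tested.

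**Figure D5:**
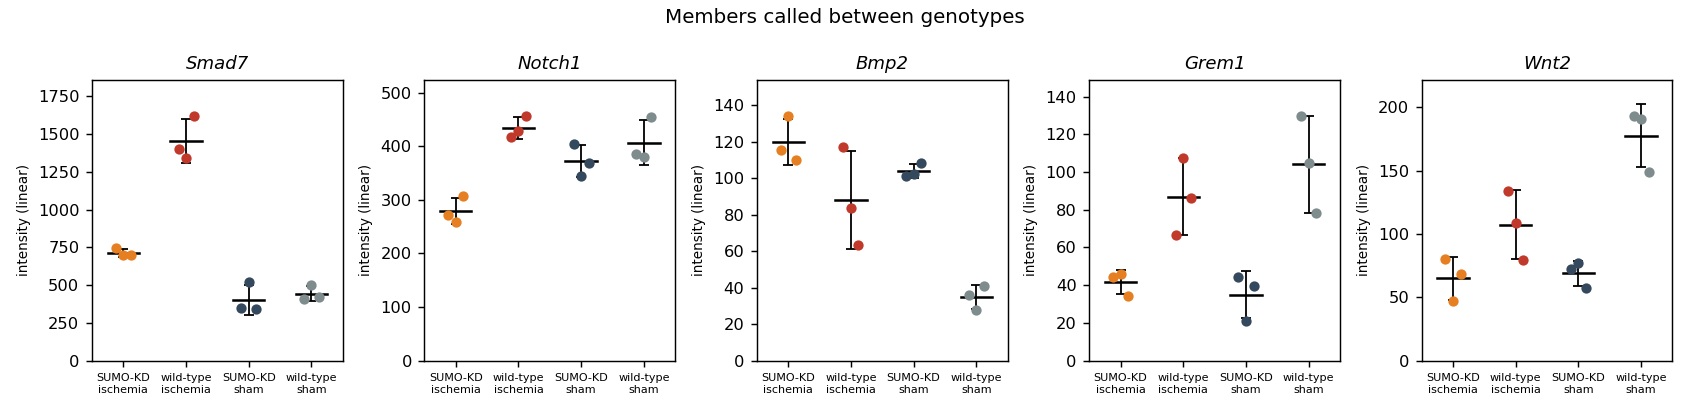
Linear intensity on each array for the 5 genes called between genotypes, with points for arrays, a bar for the mean and whiskers of 1 SD (n = 3), SUMO-KD left of wild-type within each surgery. Smad7 and Notch1 differ after ischemia, and Bmp2, Grem1 and Wnt2 differ in the sham arrays.

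Other genes of the 3 pathways were read from lists of receptors, transducers and inhibitors outside the families above. Of 38 measured Wnt pathway genes, 3 were called higher and 3 lower after ischemia in SUMO-KD mice, and 3 higher and 5 lower in wild-type mice, with medians of 0.05 in both. That is 15.8% called in SUMO-KD mice and 21.1% in wild-type mice, beside the 10.7% and 18.5% of all genes. The wild-type share in either direction was thus near the background. Higher and lower calls were 7.89% each in SUMO-KD mice, beside 6.08% and 4.62% of all genes. They were 7.89% and 13.2% in wild-type mice, beside 9.59% and 8.88%. Dact1, a Dishevelled-binding regulator, averaged 719 ± 113 after ischemia and 182 ± 18.1 after sham surgery in SUMO-KD mice, and 424 ± 92.1 and 171 ± 21.9 in wild-type mice (SD, n = 3 each). It was higher by 1.80 (SE 0.15, adjusted p = 2.66e-05) and 1.16 (SE 0.15, adjusted p = 0.00043), and higher in SUMO-KD than in wild-type mice after ischemia (0.73, SE 0.15, adjusted p = 0.0384). Tle3, a Groucho co-repressor, was higher by 0.92 in SUMO-KD mice and 0.58 in wild-type mice, while its relative Tle1 was lower, at −0.39 and −0.42. The polarity cadherin Celsr2 (−0.40 and −0.57) and the β-catenin ubiquitin ligase subunit Btrc (−0.40 and −0.32) were lower in both. Ryk, a Wnt co-receptor, was called in wild-type mice (0.72, SE 0.14, adjusted p = 0.00384) and had 0.12 (SE 0.14, adjusted p = 0.669) in SUMO-KD mice. Several of these calls rested on single arrays or 1 probe set. Leaving out 1 array ended the call of Btrc in 4 of 12 omissions in SUMO-KD mice (adjusted p of 0.0689 to 0.0951) and 9 of 12 in wild-type mice (0.0522 to 0.132), and that of Tle1 in 5 (0.0696 to 0.105) and 2 (0.0504 and 0.0568). With the mean of all probe sets Btrc had −0.04 in SUMO-KD mice and 0.11 in wild-type mice, a turned direction, and Tle1 had −0.04 and −0.09, none of them called. The genotype difference of Dact1 was lost in 10 of 12 omissions (adjusted p of 0.0528 to 0.156). Single omissions also ended the SUMO-KD call of Celsr2 (without SUMO-KD ischemia replicate 2, adjusted p = 0.0509) and the wild-type call of Tle3 (without wild-type ischemia replicate 1, adjusted p = 0.0594).

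Of 28 measured Notch pathway genes, 0 were called higher and 3 lower in SUMO-KD mice (2 higher and 3 lower at an unadjusted p under 0.05), and 2 higher and 4 lower in wild-type mice, with medians of −0.03 and −0.10. The shares called in either direction, 10.7% in SUMO-KD mice and 21.4% in wild-type mice, were at or near the 10.7% and 18.5% of all genes. By direction, 0% were higher and 10.7% lower in SUMO-KD mice, beside 6.08% and 4.62% of all genes. In wild-type mice 7.14% were higher and 14.3% lower, beside 9.59% and 8.88%. Adam10, the protease that cleaves ligand-bound Notch, averaged 1144 ± 100.1 after ischemia and 1628 ± 168 after sham surgery in SUMO-KD mice, and 1214 ± 138 and 1659 ± 86.1 in wild-type mice. It was lower, at log2 changes of −0.50 (SE 0.11, adjusted p = 0.0152) and −0.45 (SE 0.11, adjusted p = 0.0169). The ubiquitin ligase Itch was lower, at −0.56 and −0.57. Nrarp, a Notch-induced inhibitor, was called in SUMO-KD mice (−0.65, SE 0.17, adjusted p = 0.0275), with −0.40 (SE 0.17, adjusted p = 0.124) in wild-type mice. The wild-type value of Nrarp passed the threshold without SUMO-KD ischemia replicate 1 or 2 (adjusted p of 0.0343 and 0.0429). In wild-type mice the calls included Rbpj, the DNA-binding partner of Notch, which was higher (0.35, SE 0.10, adjusted p = 0.0342, with a log2 change of 0.04 in SUMO-KD mice), and the ligand-activating ligase Mib2 and the γ-secretase subunit Psen2, which were lower (−0.45 and −0.39). The call of Psen2 was lost in 10 of 12 omissions of an array (adjusted p of 0.051 to 0.147), that of Nrarp without any 1 sham array or ischemia replicate 2 or 3 of SUMO-KD mice (0.0665 to 0.0842), and that of Rbpj without wild-type sham replicate 1 or 3 or wild-type ischemia replicate 2 or 3 (0.0672 to 0.124) or after median centring (0.0558). For Adam10, the SUMO-KD call ended without that genotype's sham replicate 2 or ischemia replicate 2 or 3 (0.0614 to 0.0626), and the wild-type call without its own sham replicate 2 or ischemia replicate 3 (0.0534 and 0.0639). The mean of its probe sets gave −0.17 in SUMO-KD mice and −0.19 in wild-type mice, not called. In SUMO-KD mice Itch was no longer called once their sham replicate 1 or 2 was omitted (adjusted p of 0.0777 and 0.0761).

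Of 35 measured BMP and TGF-β pathway genes, 6 were called higher and 0 lower in SUMO-KD mice (9 higher and 3 lower at an unadjusted p under 0.05), and 8 higher and 1 lower in wild-type mice, with medians of 0.17 and 0.27. Higher calls were 17.1% of the list in SUMO-KD mice and 22.9% in wild-type mice, beside 6.08% and 9.59% of all genes, and lower calls 0% and 2.86%, beside 4.62% and 8.88%. Inhba, a subunit of activin, averaged 329.8 ± 16.7 after ischemia and 291 ± 40.4 after sham surgery in SUMO-KD mice, and 1559 ± 578 and 403 ± 53.6 in wild-type mice. It was called in wild-type mice (1.81, SE 0.23, adjusted p = 0.000304) and not in SUMO-KD mice (0.17, SE 0.23, adjusted p = 0.723), and was lower in SUMO-KD than in wild-type mice after ischemia (−2.07, SE 0.23, adjusted p = 0.00106). The difference of its responses was −1.64 (SE 0.32, adjusted p = 0.229). Bambi, a decoy receptor of the pathway, averaged 542 ± 69.7 after ischemia and 248 ± 18 after sham surgery in SUMO-KD mice, and 302 ± 16.6 and 184 ± 33.3 in wild-type mice. It was higher by 1.03 (SE 0.12, adjusted p = 0.00033) and 0.64 (SE 0.12, adjusted p = 0.00447). Pmepa1, an inhibitor that binds receptor Smads, was higher by 0.63 and 1.20, the receptor Acvr1 by 0.68 and 0.95, and the activin subunit Inhbb by 0.74 and 0.88. Tgfb2 was called in SUMO-KD mice (0.52, SE 0.13, adjusted p = 0.029), with 0.28 (SE 0.13, adjusted p = 0.177) in wild-type mice. That call ended on omitting sham replicate 1 or 3 or any 1 ischemia array of SUMO-KD mice (adjusted p of 0.0507 to 0.108), and that of Acvr1 in SUMO-KD mice without their sham replicate 3 or ischemia replicate 2 (0.0651 and 0.0765). With the mean of all probe sets Acvr1 had 0.28 in SUMO-KD mice and 0.51 in wild-type mice, and Inhbb 0.40 and 0.32, none of them called. With that mean Tgfb2 passed the threshold in wild-type mice (0.34, adjusted p = 0.0474). The difference of the Inhba responses passed the threshold without wild-type ischemia replicate 2 (adjusted p = 0.00603).

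Between genotypes the 3 lists together gave 3 genes higher and 2 lower in SUMO-KD mice after ischemia, which were Dact1, Bambi and Acvr2a against Inhba and Tgfb2. These 5 are 4.95% of the 101 genes measured, beside 1.56% of all genes. Pmepa1 was not called there, and it passed the threshold as lower under some alternatives, such as quantile normalization (−0.55, adjusted p = 0.0374). In sham mice Acvr2a was higher and Tgfb2 lower, or 1.98%, near the 2.10% of all genes. Tgfb2, a TGF-β ligand, averaged 525 ± 34.8 in SUMO-KD mice and 852 ± 57.7 in wild-type mice after ischemia, and 361 ± 71 and 698 ± 73.4 after sham surgery, at −0.67 (SE 0.13, adjusted p = 0.0316) and −0.91 (SE 0.13, adjusted p = 0.00496). Its call after ischemia was lost when any 1 of the 6 ischemia arrays was left out (adjusted p of 0.0592 to 0.138). Bambi had 0.78 (SE 0.12, adjusted p = 0.0115) after ischemia, a call lost without wild-type ischemia replicate 1 or SUMO-KD ischemia replicate 3 (adjusted p of 0.0536 and 0.0538). Acvr2a, an activin receptor, had 0.47 (SE 0.10, adjusted p = 0.0398) after ischemia and 0.46 (SE 0.10, adjusted p = 0.0381) in sham mice, lost in 9 and 8 of 12 omissions (adjusted p of 0.0545 to 0.169 and 0.0519 to 0.158).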

How the data were processed

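The deposited values were linear intensities of 22690 probe sets, 1 per array; their mean without the lowest and highest 2% was the same on all 12 arrays. Partek 6.6 and RMA are named in the submitters' processing notes, with no role, and the values do not have the form of RMA output; how the table was made is not stated there. Of the probe sets, 20393 had 1 gene symbol, 691 several and 1606 none in the platform annotation. For each gene the probe set with the highest mean was used; 31 of the 79 genes had more than 1. All 79 symbols were in RefSeq's gene table (GRCm38.p6). Group means of log2(intensity + 32) for all 4 groups entered 1 model in limma (lmFit, eBayes; version 3.58.1, R 4.3.3; 8 residual degrees of freedom), two-sided, with Benjamini-Hochberg adjustment over 12394 genes; the script was tested on simulated data. Values per array are given for every gene called in any comparison (24 genes), the 3 smallest p for the interaction, up to 5 called genes per pathway list and genotype, and Sumo3; values of other genes were chosen after they were seen. The members, roles and lists were chosen with earlier results of these data known. Alternatives changed the offset, probe sets, dim-gene filter, normalization, variance model, array weights, fit samples and replicate block, and left out each array. The number of arrays limits the precision.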

Additional observations from a re-analysis of the deposited data

How the results depend on the processing

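Under the 23 alternatives run, 2 called results changed direction, neither past the threshold: Btrc after ischemia in wild-type mice, at 0.11 with the mean of all probe sets, and Sumo3 in SUMO-KD sham mice, at 0.049 without probe sets that may match several transcripts. Changes of sign in results not called either way were not counted. Of 42 calls of named genes, 24 passed under every alternative that could be run (Dkk2 is not tested under the filter on dim genes), and 16 were lost on leaving out at least 1 of the 12 arrays. On leaving out 1 array, the genes called higher after ischemia numbered 10 to 15 in SUMO-KD mice and 11 to 18 in wild-type mice, and those called lower 1 to 4 in each. Between genotypes after ischemia, 0 to 1 were higher and 1 to 3 lower in SUMO-KD mice, and in sham mice 1 was higher and 1 to 2 lower; the interaction stayed at 0. A fit of only the groups compared, which has fewer arrays to estimate the spread, ended 13 of the 42 calls: it left 1 gene lower after ischemia in SUMO-KD mice, 1 lower in SUMO-KD mice after ischemia and 1 lower in SUMO-KD sham mice, and was not run for the interaction, which uses all 4 groups. Array weights gave 1 gene higher in SUMO-KD mice after ischemia and 2 higher in SUMO-KD sham mice, and the mean of all probe sets left 1 lower after ischemia; the cause was not tested. Over all genes, SUMO-KD against wild-type gave 124 higher and 69 lower after ischemia (35 and 13 with only the groups compared, 222 and 109 with array weights) and 186 higher and 74 lower in sham mice (104 and 26, 297 and 160, and 116 lower with trend and robust variance). Ischemia gave 573 lower in SUMO-KD mice (344 and 862) and 1101 lower in wild-type mice (663 with only the groups compared).

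Of 39 calls of Sumo3 and of named genes on the wider pathway lists, 13 passed under every alternative, 19 were lost on leaving out at least 1 array and 15 with only the groups compared. On leaving out 1 array, the 3 lists together had 5 to 11 genes higher and 1 to 7 lower after ischemia in SUMO-KD mice (9 and 6 with all arrays) and 10 to 15 higher and 6 to 11 lower in wild-type mice (13 and 10). They had 0 to 3 higher and 1 to 3 lower in SUMO-KD mice after ischemia (3 and 2), 0 to 1 higher and 1 to 2 lower in sham mice (1 and 1), and 0 to 1 lower in the interaction (0). The lower calls after ischemia were 2 in SUMO-KD mice and 6 in wild-type mice with the mean of all probe sets, 2 and 5 with only the groups compared, and 16 in wild-type mice after median centring. Higher calls in SUMO-KD mice after ischemia were 1 at an offset of 16, 0 with only the groups compared (1 lower) and 6 with array weights. In sham mice none (0) were higher at an offset of 16, with the mean of all probe sets, after median centring, with the replicate block or with only the groups compared (also 0 lower), and 2 were lower at an offset of 64, with the dim filter, quantile normalization, median centring or array weights.

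Deviations of same-numbered arrays from their group means correlated at −0.17 to 0.28 (median 0.06, 18 pairs), and those of other numbers at −0.36 to 0.34 (median −0.03, 36 pairs). Of the 12 arrays, 6 correlated best with their own number. The ranges overlap, so these values cannot settle whether the replicate numbers pair the arrays. With the replicate block, 14 genes were higher and 4 lower after ischemia in SUMO-KD mice and 18 higher and 3 lower in wild-type mice, 0 higher and 2 lower between genotypes after ischemia, 1 higher and 2 lower in sham mice, and 0 for the interaction, where 1 of all 12394 genes was called with the block and 2 without it.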
